A study of Mus musculus with 6 samples.

Results

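The genes described here carry the fibroblast growth factor (FGF) signal from the cell surface to the RAF kinases: the ligand gene Fgf4, the receptor genes Fgfr1, Fgfr2 and Fgfr3, the adaptor and phosphatase genes Grb2, Shc1 and Ptpn11, and the kinase genes Araf and Braf. They were followed in mouse embryonic stem (ES) cells of a 129P2 background, where 3 arrays of cells with Prdm14 overexpression were compared with 3 arrays of cells with a control vector, all grown in serum. The parental ES cells of the stable overexpressing lines carry a GFP reporter of Rex1 (Zfp42). Prdm14 was expressed constitutively, and the sources used here give neither the promoter that drives it nor which lines were hybridised. The labels place the 3 replicates of each group at consecutive passages, so a p-value measures the variation from passage to passage, and differences between the lines cannot be told apart from an effect of Prdm14.

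Genes were taken by their symbol in the platform annotation. It was read only for probes above background (detection p under 0.01) on at least 1 array. This gave 14 probes of 6 of the 9 genes, out of 9166 genes named in this way. The 6 genes were Fgf4, Fgfr2, Grb2, Shc1, Ptpn11 and Araf. Supplementary gene lists of the study name 1 further probe each for Braf and Fgfr1, and these were added by probe identifier only. No probe of Fgfr3 was named, so Fgfr3 was not analysed here. A gene without a named probe may have been within background on every array, as the Fgfr1 probe was. Its probe may also lack a symbol, as the Braf probe does. An absent name is therefore no evidence that the platform lacks a probe for the gene. The Braf probe was thus known only through a list of genes called on these same arrays, and the study also chose Fgfr2, Shc1 and Braf on these samples, so the direction of the 3 genes is not independent evidence.

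FGF4 is secreted by ES cells and acts on the cells that make it. Ligand binding brings receptor tyrosine kinases together, and the phosphorylated receptors recruit docking proteins, SHC1 and GRB2, with which the exchange factor SOS turns on RAS. The phosphatase SHP2, the product of Ptpn11, helps to keep RAS active, and active RAS recruits the RAF kinases, which start the MEK and ERK cascade. ERK activity moves ES cells from naive pluripotency towards differentiation, which is why the study asked whether Prdm14 acts on this pathway.

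On each array 14078 to 14769 probes (31.1% to 32.6%) were above the negative control beads at a detection p under 0.01. Probes above background on no array were brighter on the overexpression arrays (median signal 73.3 to 81.2) than on the control arrays (59.6 to 62.8), so values close to background were compared only after correction. Signals were background corrected, quantile normalized and put on a log2 scale, and probes detected on 3 or more arrays, 14604 in all, entered the limma fit. A gene was represented by its brightest tested probe. Unless marked as SD, an error after ± is the SE of the log2 difference, overexpression minus control, with 3 arrays per group. Prdm14 itself read 14907, 10751 and 11016 on the overexpression arrays and 801, 673 and 855 on the control arrays. A second deposited table of normalized values was used only as an alternative, because 4 of its 6 columns matched another array than the one they are named for, 2 of them from the other group. All 10 ES cell markers were tested, among them Pou5f1 (Oct4), Sox2, Nanog and also Fgf4. None passed an adjusted p of 0.01 with limma (4 had an unadjusted p under 0.05, as had 25.0% of all genes tested), and their summed normalized signal was 77872 to 78624 in overexpressing and 72327 to 75103 in control cells. Klf4, which the paper lists as upregulated, came close, with a log2 difference of 0.65 ± 0.12 (limma adjusted p = 0.0105). Nanog differed by 0.34 ± 0.090 (0.0467), while Utf1 (-0.12) and Dppa5a (-0.11) lay under 0. The median difference of the 10 markers was 0.14.

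Of the 6 genes tested, 2 were lower in Prdm14 overexpressing cells and 4 did not pass the threshold. The receptor gene Fgfr2 was 1.96-fold lower and the adaptor gene Shc1 was 1.47-fold lower. The share called, 33.3%, stands beside 4.64% of all 8529 genes tested, of which 2.90% were lower and 1.75% higher. The median log2 difference was -0.06 for the 6 genes and -0.0016 for all genes. The normalized groups did not overlap for 2 of the 6 genes (33.3%), near the 29.9% of all genes. With so few genes, chosen with results of these arrays known, these shares are a description only.

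**Figure D1:**
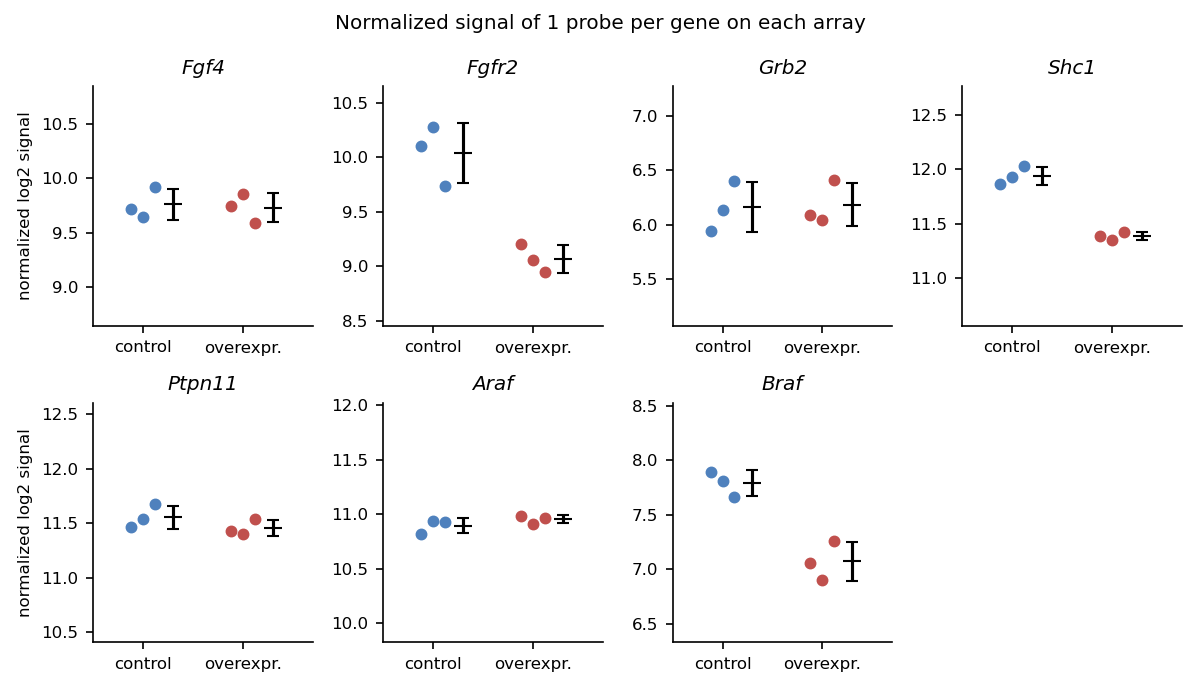
Normalized log2 signal (vertical axis, each panel spanning the same range) of 1 probe per gene on the 3 control arrays (blue) and the 3 Prdm14 overexpression arrays (red), with the group mean and SD beside the points. Fgfr2, Shc1 and Braf have groups that do not overlap, while the groups overlap for Fgf4, Grb2, Ptpn11 and Araf.

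The ligand gene Fgf4 was expressed in both groups at levels that differed by less than the spread between arrays. Its only named probe (ILMN_2608629) read 1161, 936 and 868 with overexpression and 747, 757 and 1033 with the control vector. The groups overlapped before and after normalization. On the log2 scale the group means were 9.73 ± 0.13 and 9.76 ± 0.14 (SD, n = 3 each), a difference of -0.028 ± 0.11 (limma adjusted p = 0.923). The 95% confidence interval of the difference, -0.28 to 0.23, bounds the change that these arrays could have missed. The sign of so small a value turned with the scaling: with median scaling in place of quantile normalization it was 0.089, where the median of all genes was 0.11.

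Fgfr2 encodes a receptor for several FGF ligands that is known for its role in the primitive endoderm and trophectoderm lineages of the blastocyst. Its brighter probe (ILMN_1225071) read 824, 565 and 582 on the overexpression arrays and 964, 1172 and 907 on the control arrays. Each of the 3 overexpression arrays lay under each of the 3 control arrays, also before normalization. The normalized log2 values were 9.21, 9.06 and 8.95 against 10.10, 10.28 and 9.74. The control arrays were more spread (SD 0.28) than the overexpression arrays (SD 0.13), control array 3 being the lowest of them. Fgfr2 fell by 0.97 ± 0.15 on the log2 scale (limma adjusted p = 0.00393), to 51.1% of the control level, with a 95% interval of -1.30 to -0.64. Only 131 of the 8529 tested genes (1.54%) had a lower value.

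The second Fgfr2 probe (ILMN_2609887) was dim and was not tested. Its signals were 133, 89.1 and 113 in overexpressing cells, above background on none of the arrays, and 118, 136 and 121 in control cells, above background on 2. After normalization its groups did not overlap either, with 5.16 to 5.72 against 6.15 to 6.69, and the control level was at least 1.20-fold higher. That bound sets the control mean against the mean of, per array, the lowest value among detected probes or the probe's own value, whichever was higher. Both probes carry the same transcript accession (NM_201601), so the values do not tell receptor isoforms apart.

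The call of Fgfr2 depended on the number of arrays. Its log2 difference stayed between -1.12 and -0.85 with any 1 array left out, but the adjusted p rose to 0.0133 without overexpression array 1, 0.0130 without array 2, 0.0154 without array 3 and 0.0223 without control array 1. It was 0.0098 without control array 2 and 0.00222 without control array 3. With all 6 arrays Fgfr2 passed under each of the other alternatives except the normalized table under its deposited names (adjusted p from 8.01e-05 to 0.00667).

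**Figure D2:**
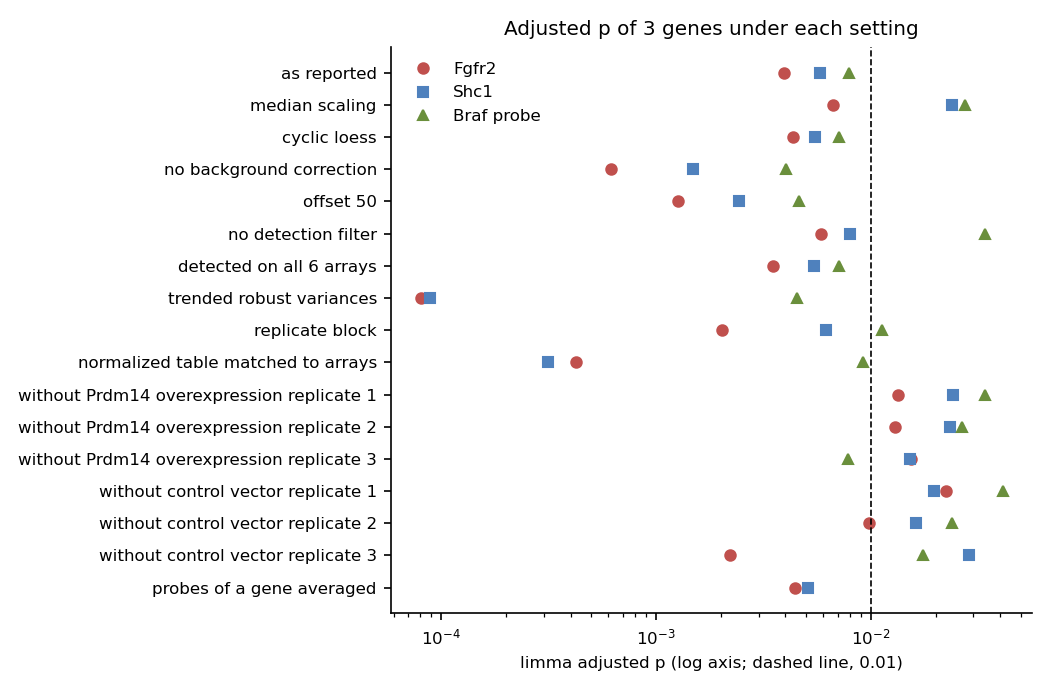
Adjusted p from limma (log axis) of Fgfr2 (circles), Shc1 (squares) and the Braf probe (triangles) under each processing setting, with the threshold of 0.01 as a dashed line. The normalized table in its named order is not drawn. With 1 array left out most points lie right of the line, where Shc1 does not pass in any case, Fgfr2 passes without control array 2 or 3 and the Braf probe passes without overexpression array 3.

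Shc1 encodes an adaptor that is phosphorylated by many receptor tyrosine kinases and binds GRB2. Its bright probe (ILMN_2957070) read 3389, 2585 and 2857 on the overexpression arrays and 3202, 3709 and 4292 on the control arrays. Before normalization overexpression array 1 lay above control array 1, and after normalization the groups were apart and tight, at 11.39, 11.35 and 11.42 against 11.86, 11.93 and 12.03. Shc1 fell by 0.55 ± 0.090 (limma adjusted p = 0.00576), to 68.2% of the control level, with a 95% interval of -0.76 to -0.35. This smaller change lost its call whichever single array was dropped (adjusted p from 0.0153 without overexpression array 3 to 0.0285 without control array 3) and with median scaling (0.0239), although the log2 difference stayed between -0.59 and -0.49.

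The other Shc1 probes were near background and were not tested. Probe ILMN_2716426 gave 97.8, 88.6 and 97.6 in overexpressing and 118, 110.5 and 97.2 in control cells, and probe ILMN_1236765 gave 138, 124 and 117 against 103, 102 and 129. Each was above background on 1 control array only. After normalization the first had groups that did not overlap, with the control arrays higher, and the second had groups that did.

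Braf encodes the RAF kinase with the strongest basal activity. Its probe (ILMN_1246957), to which the platform annotation gives no gene, was above background on each of the 6 arrays with low signals, of 241, 171 and 222 against 248, 237 and 252 in control cells. The groups overlapped before normalization, because overexpression array 1 lay above control array 2. After background correction and normalization they were apart, at 7.06, 6.90 and 7.26 against 7.89, 7.81 and 7.66. The log2 difference was -0.72 ± 0.12 (limma adjusted p over probes = 0.00790), a call made for 3.50% of the 14604 probes, 2.10% being lower. The call was lost with the replicate number as a block (adjusted p = 0.0113), with median scaling (0.0274), without the detection filter (0.0339) and when overexpression array 1, overexpression array 2 or any control array was left out (0.0174 to 0.0411). The size varied with the background step, being -0.54 without background correction and -0.34 in the normalized table once its columns were matched to arrays.

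Araf, the other RAF kinase gene with named probes, has 4 of them, all above background on the 6 arrays. Its brightest probe (ILMN_2914271) read 2592, 1918 and 2133 with overexpression and 1558, 1819 and 2009 with the control vector, which overlapped. The difference was 0.058 ± 0.089 (limma adjusted p = 0.759), with a 95% interval of -0.14 to 0.26. The other probes gave 0.21 ± 0.12 (ILMN_1216083), 0.14 ± 0.10 (ILMN_2564840) and -0.030 ± 0.11 (ILMN_1237241), with adjusted p over probes from 0.354 to 0.916. The groups of ILMN_2564840 did not overlap after normalization and those of ILMN_1216083 did. Within each array the Braf probe was also set against the brightest Araf probe. As the Braf probe was known only through a list of genes called on these same arrays, a difference was favoured in advance. The comparison is therefore no independent evidence that the responses of the genes differed. The log2 distance between them changed by -0.774 (SD 0.155 and 0.176, exact permutation test, two-sided, p = 0.1, the only pair tested). With 3 against 3 arrays this is the smallest p the test can give, so no threshold of 0.05 could have been passed.

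Ptpn11, for the phosphatase SHP2, and Grb2, for the adaptor that holds SOS, did not pass either. The brightest Ptpn11 probe (ILMN_3001598) read 3488, 2698 and 3113 with overexpression and 2420, 2784 and 3339 with the control vector, and the groups overlapped. It differed by -0.10 ± 0.10 (limma adjusted p = 0.592), with a 95% interval of -0.32 to 0.12. Its other probes gave -0.24 ± 0.10 (ILMN_1245874, adjusted p over probes 0.207) and -0.037 ± 0.087 (ILMN_2743723, 0.859). The groups of the probe ILMN_1245874 did not overlap after normalization, with 7.62 to 7.82 against 7.84 to 8.03. The only named Grb2 probe (ILMN_2995537) was close to background. It read 154, 122 and 150 with overexpression (above background on 2 arrays) and 100.2, 109 and 135 with the control vector (above background on 1). Its log2 difference was 0.024 ± 0.14 (adjusted p = 0.956) with a wide 95% interval of -0.31 to 0.35.

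**Figure D3:**
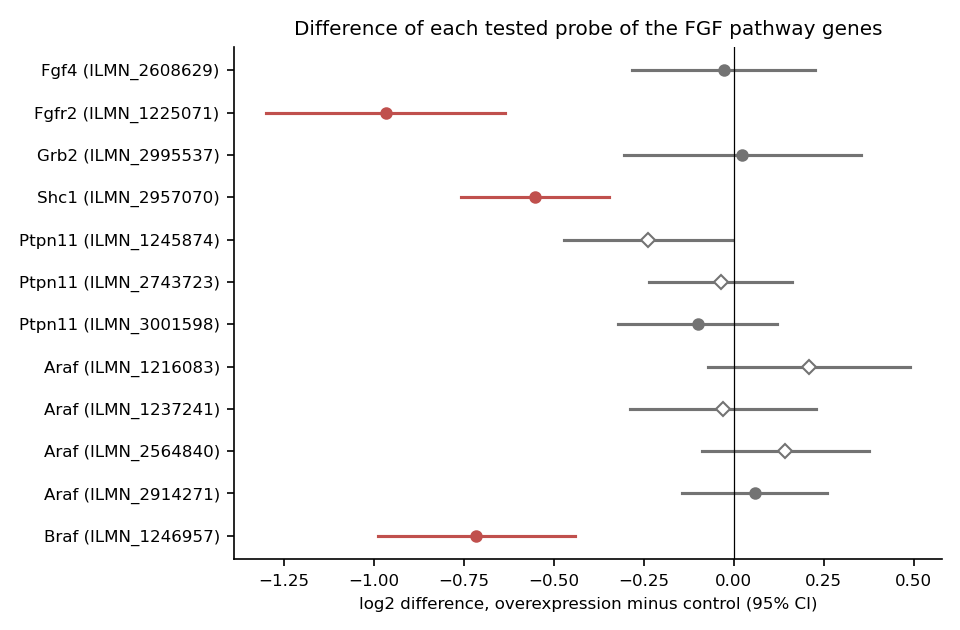
Log2 difference, overexpression minus control, with its 95% confidence interval from limma for each tested probe. Filled circles are the probes that stand for their gene, open diamonds the other probes, and red marks an adjusted p under 0.01, reached by 1 probe each of Fgfr2, Shc1 and Braf. None of the other 5 probes of Ptpn11 and Araf passed (1 had an unadjusted p under 0.05, against 25.0% of all genes).

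Fgfr1 encodes the FGF receptor through which ES cells are known to respond to FGF4. The only probe named for it (ILMN_2727068) stayed within background on every one of the 6 arrays, with signals of 103, 108 and 103 in overexpressing and of 91.0, 81.2 and 87.4 in control cells and detection p-values from 0.0395 to 0.157. Its raw groups did not overlap, in the same direction as the brighter background of the overexpression arrays, and after normalization they did (5.16 to 5.69 against 5.31 to 5.68). No fold is given, and the planned tests of Fgfr2 against Fgfr1 and Fgfr3 were not possible.

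**Figure D4:**
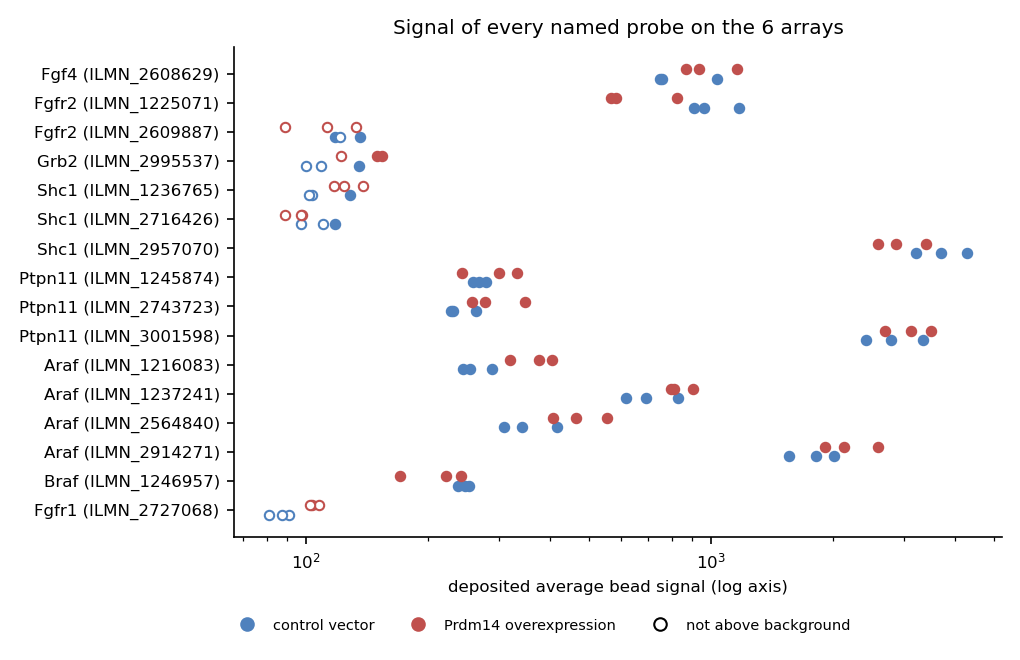
Deposited average bead signal (log axis) of the 16 named probes on the control (blue) and Prdm14 overexpression (red) arrays, filled where the detection p was under 0.01 and open otherwise. The probes of Grb2 and Fgfr1, the second Fgfr2 probe and 2 of the 3 Shc1 probes lie near background, and signals of different probes are not comparable as levels.

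The promoters of Fgfr2, Shc1 and Braf are shown so that the sequence around the starts of the 3 genes with lower values can be compared. They are RefSeq sequences of build GRCm38.p6, from 250 bases before to 50 bases after an annotated start, 5′ to 3′ on the strand of the gene. Fgfr2 lies at chr7:130266759-130267058 on the minus strand, Shc1 has starts at chr3:89418301-89418600 and chr3:89421371-89421670 on the plus strand, and Braf lies at chr6:39725414-39725713 on the minus strand. Capitals mark matches, on either strand, to the GC box GGGCGG, the CCAAT box CCAAT, the TATA box TATAAA, the cyclic AMP response element TGACGTCA and GGTCTCTAA, a motif described for PRDM14 in human ES cells. The response element was added to the search after the sequences had been read.
Fgfr2: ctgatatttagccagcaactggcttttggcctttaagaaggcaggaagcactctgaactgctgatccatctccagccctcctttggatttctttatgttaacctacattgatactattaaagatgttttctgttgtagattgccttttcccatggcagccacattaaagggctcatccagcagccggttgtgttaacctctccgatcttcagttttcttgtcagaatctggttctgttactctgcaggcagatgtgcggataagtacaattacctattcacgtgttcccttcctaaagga
Shc1 first start: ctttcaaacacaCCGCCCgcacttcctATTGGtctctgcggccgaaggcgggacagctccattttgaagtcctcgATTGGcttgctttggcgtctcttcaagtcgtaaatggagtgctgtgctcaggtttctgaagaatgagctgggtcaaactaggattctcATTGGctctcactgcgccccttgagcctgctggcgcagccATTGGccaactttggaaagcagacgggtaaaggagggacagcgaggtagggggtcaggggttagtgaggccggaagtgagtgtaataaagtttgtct
Shc1 second start: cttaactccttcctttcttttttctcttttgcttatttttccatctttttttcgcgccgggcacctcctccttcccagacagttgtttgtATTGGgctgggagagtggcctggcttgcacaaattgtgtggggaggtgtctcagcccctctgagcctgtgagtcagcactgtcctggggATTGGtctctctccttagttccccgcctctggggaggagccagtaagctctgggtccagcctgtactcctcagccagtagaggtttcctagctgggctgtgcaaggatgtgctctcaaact
Braf: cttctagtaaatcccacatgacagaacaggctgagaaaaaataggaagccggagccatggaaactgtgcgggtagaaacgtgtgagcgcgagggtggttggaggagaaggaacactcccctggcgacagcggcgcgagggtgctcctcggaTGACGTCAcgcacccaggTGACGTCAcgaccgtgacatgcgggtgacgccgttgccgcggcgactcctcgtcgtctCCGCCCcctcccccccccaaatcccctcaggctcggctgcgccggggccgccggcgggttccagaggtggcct
The Fgfr2 stretch held none of these letters and had 4 CpG dinucleotides and 43.7% GC, against medians of 7 and 52.7% over all 32851 promoters. The first Shc1 start had 4 CCAAT boxes, 1 GC box and 13 CpG, and the second had 2 CCAAT boxes and 4 CpG. The Braf promoter was CpG rich (30 CpG, 65.0% GC) with 1 GC box and 2 cyclic AMP response elements. Among all promoters 35.7% held a GC box, 37.4% a CCAAT box, 13.6% a TATA box, 1.79% the response element and 0.256% the PRDM14 motif, which none of the promoters of the 8 genes found in the table held. As the Fgfr2 stretch held none, no motif of this set could be shared by all 3 genes, while the first Shc1 start and Braf each held 1 GC box. The paper cites earlier work that found Fgfr2, Braf and Shc1 to be direct targets of PRDM14. Binding was not tested by this search for exact letters near the starts. For comparison, Fgf4 (28 CpG) held 2 GC boxes and 1 CCAAT box and Araf (14 CpG) 3 CCAAT boxes, and Ptpn11 (37 CpG) held 4 GC boxes and 1 response element. Only RefSeq starts were read, which need not be those used in ES cells.

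Most other pathway genes did not pass the threshold. In 8 lists of pathway genes and other receptor tyrosine kinases 124 genes were listed, of which 71 had a named probe and 61 were tested, and 4 were higher, 2 lower and 55 not past the threshold (9.84% called, against 4.64% of all genes). An unadjusted p under 0.05 was found for 16 of them, and for 25.0% of all genes. One called gene, Ddr2, entered the fit only through the group where it was high, which leaves 3 higher and 2 lower that were above background in both groups. The median log2 difference of the 61 tested genes was -0.025.

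Among ligands and receptors other than the 4 described, none passed. With limma none of 5 other FGF ligands was called, with a median difference of 0.15. An unadjusted p under 0.05 was found for 3 of the 5, and for 25.0% of all genes. Fgfrl1, a receptor without a kinase domain, was the only further receptor or co-receptor gene tested. It was not called, with a difference of -0.012 ± 0.15 (limma adjusted p = 0.979). Of 14 genes for heparan sulphate, which FGFs need to bind their receptors, 5 had an unadjusted p under 0.05, against 25.0% of all genes. The list had a median difference of -0.013, and 1 gene was lower (2.90% of all genes were). This was Sulf1, a sulphatase that trims heparan sulphate at the cell surface, at 322, 229 and 277 with overexpression and 406, 426 and 414 with the control vector. The groups did not overlap. Sulf1 fell by 1.09 ± 0.11 (limma adjusted p = 0.000536) and was called under each alternative except the table under its deposited names. In the matched normalized table its difference was -0.67. The related sulphatase gene Sulf2, named after its value was seen, differed by 0.37 ± 0.10 (adjusted p = 0.0449).

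Between the receptors and RAF, no further adaptor or RAS gene passed. None of 5 other adaptor genes was called with limma, and the median difference was -0.086 (1 had an unadjusted p under 0.05, against 25.0% of all genes). The docking protein gene Gab1 differed by -0.32 ± 0.094 (limma adjusted p = 0.0649), with signals of 4905, 4052 and 3991 against 4091, 5185 and 4914. None of 5 tested genes of RAS and the kinase cascade was called (none had an unadjusted p under 0.05, and the median difference was -0.096), with -0.096 ± 0.10 for Nras and 0.027 ± 0.098 for Map2k2, which encodes a MEK kinase. None of 10 genes for RAF partners such as the 14-3-3 proteins was called (none had an unadjusted p under 0.05, and the median difference was 0.0090). Sos1 and Frs2 had no named probe, and Map2k1 was not tested.

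**Figure D5:**
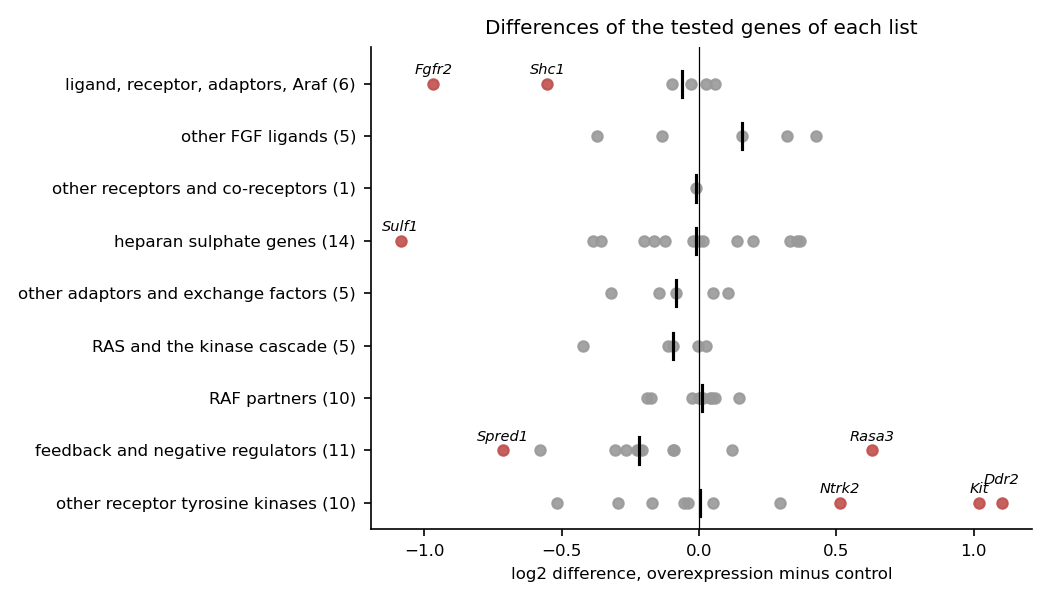
Log2 difference, overexpression minus control, of the tested genes (points) of each list, with their number in brackets and the median as a black bar. Red points passed an adjusted p of 0.01 and are named. Kit, Ntrk2, Ddr2 and Rasa3 lie above 0 and Fgfr2, Shc1, Sulf1 and Spred1 below.

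Among genes that restrain the pathway 1 was called in each direction, while most values lay under 0. Of 11 tested, Spred1, an inhibitor of RAF activation by RAS, fell by 0.71 ± 0.10 (limma adjusted p = 0.00338), and Rasa3, which helps RAS to hydrolyse GTP, rose by 0.63 ± 0.098 (adjusted p = 0.00458). The study chose Spred1 on these samples as well. The ERK phosphatase gene Dusp6, also chosen by the study, differed by -0.58 ± 0.12 and did not pass (adjusted p = 0.0190). The median difference of this list was -0.22. Apart from Dusp6 and Lztr1 (0.12), the genes that did not pass lay between -0.31 and -0.093. The share called was 18.2%, against 4.64% of all genes. An unadjusted p under 0.05 was found for 3 of the 11 (Spred1, Rasa3 and Dusp6), and for 25.0% of all genes. Rasa3 signals were 511, 423 and 432 with overexpression and 249.8, 229 and 292 with the control vector, apart before and after normalization. Spred1 signals were 295, 227 and 225 against 267, 309 and 317, apart only after normalization. Rasa3 lost its call whichever array was left out (adjusted p from 0.0134 to 0.0201). Spred1 lost it when overexpression array 1, overexpression array 3 or any control array was left out (0.0108 to 0.0153) and with median scaling (0.0145). In the matched normalized table both kept their calls at smaller sizes, 0.39 for Rasa3 and -0.39 for Spred1.

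Of 10 other receptor tyrosine kinase genes Kit and Ntrk2 were higher (1.75% of all genes were), and Ddr2 was above background in 1 group only. An unadjusted p under 0.05 was found for 4 of the 10, and for 25.0% of all genes. The median difference was 0.0046. Kit, the stem cell factor receptor of germ cells, read 4922, 3079 and 3399 with overexpression and 1668, 1531 and 1590 with the control vector. Kit rose by 1.02 ± 0.13 (limma adjusted p = 0.00199) and was called under each alternative except the table under its deposited names. The collagen receptor gene Ddr2 was above background in overexpressing cells only, with signals of 159, 141 and 143 against 84.0, 75.8 and 72.5, and was at least 1.05-fold higher (limma adjusted p = 0.00164, and 0.0177 in the matched normalized table). It passed the detection filter only through the overexpression arrays and had to differ, so its p is no support. The neurotrophin receptor gene Ntrk2 rose by 0.51 ± 0.092 (adjusted p = 0.00888), a call lost with any 1 array left out (adjusted p from 0.0201 to 0.0396), in the matched normalized table (0.0449), with trended robust variances (0.0272), without the detection filter (0.0117), with uncorrected background (0.0136) and at the offset of 50 (0.0111).

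Some markers of epithelial and trophectoderm cells, cell types known for Fgfr2 expression, were lower on the same arrays. Of 6 tested epithelial genes 4 fell (Esrp1, Cldn3, Cldn4 and Cldn6), where 2.90% of all genes were lower. Cdh1 (-0.45 ± 0.12) and Cldn7 (0.15 ± 0.12) did not pass. Cldn3 was above background on all 3 control arrays but on only 1 overexpression array. The control arrays alone thus took Cldn3 past the detection filter, so its call is no support. Esrp1, known as a regulator of Fgfr2 splicing, fell by 2.34 ± 0.14 (limma adjusted p = 5.76e-05). The summed normalized signal of the 6 was 1824 to 1921 in overexpressing and 4981 to 5806 in control cells. Of 3 trophectoderm genes Krt8 fell by 1.59 ± 0.17 (limma adjusted p = 0.000844), where 2.90% of all genes were lower. Gata3 did not pass, with -0.20 ± 0.11 (limma adjusted p = 0.290). The sums of the 3, Krt18 included, were 283 to 303 against 538 to 734. Krt18 entered the fit only through the control arrays, being not above background in overexpressing cells, and was at least 1.91-fold lower there. Cdx2, Eomes, Elf5 and Hand1 had no named probe. Of 5 primitive endoderm genes Lama1 was lower, by 0.98 ± 0.18 (limma adjusted p = 0.00929), where 2.90% of all genes were lower. Lamc1 (-0.0036 ± 0.11) and Sparc (0.17 ± 0.10) did not pass. Col4a1 (0.44 ± 0.094) and Col4a2 (0.66 ± 0.17) lay on the higher side without passing (limma adjusted p = 0.0195 and 0.0405). The sums of the 5 were 6004 to 6435 against 5777 to 6069. Gata6 and Dab2 were not tested, and Gata4 and Sox17 had no named probe. Of 4 fibroblast genes Fbln2 was higher, by 0.89 ± 0.14 (limma adjusted p = 0.00438), where 1.75% of all genes were higher. Thy1 (-0.15 ± 0.13) and Vim (0.15 ± 0.10) did not pass. The sums of the 4, Acta2 included, were 2454 to 2701 against 2179 to 2702. Acta2 likewise entered only through the control arrays and was at least 2.93-fold lower, being not above background in overexpressing cells. The part of these cell types in the lower Fgfr2 value was not tested, and in bulk RNA fewer cells of a type and less RNA per cell cannot be told apart.

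Over the 6 arrays the genes most like Fgfr2 were Ap1m2, a clathrin adaptor subunit of epithelial cells (Pearson r = 0.993, log2 difference -1.53), Mnd1, a meiotic recombination gene (r = 0.993, -0.34), and Dysf, the gene for dysferlin (r = 0.992, -0.48). Those most like Shc1 were the prion protein gene Prnp (r = 0.998, -0.90), Atpif1, for an inhibitor of the mitochondrial ATP synthase (r = 0.996, -0.44), and Gas2l1 (r = 0.995, -0.28). Of the genes named here Ap1m2 (limma adjusted p = 0.00264) and Prnp (0.00125) passed the threshold. Mnd1, Dysf, Atpif1 and Gas2l1 did not (0.0141 to 0.0747). With 3 arrays in each of 2 groups the correlations share the difference between the groups and are given as a description.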

How the data were processed

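Total RNA was labelled with biotin and hybridised to Illumina Mouse WG-6 BeadChips. The authors deposited the average bead signal of each probe as a linear intensity without background subtraction or normalization, and beside it a detection p-value against the negative control beads of the array. The authors also deposited a table of lumi output in log2-like units (its version and transformation are not stated), with a median of 8.617 in each column. These 15944 probes are those above background on at least 1 array. Each column of that table correlated with 1 of the 6 signal columns (r = 0.951 to 0.990, deviations from the probe mean; next best at most 0.543), but for 4 columns this was not the array named, and for 2 it was in the other group. The table served as an alternative under its deposited names, and with each column given to its matching array.

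Signals were corrected and normalized with nec and quantile normalization of limma 3.58.1 in R 4.3.3 (normexp from detection p-values, offset 16, log2). Probes detected (p under 0.01) on 3 or more arrays entered lmFit and eBayes with 2 groups, with Benjamini-Hochberg adjustment and the threshold of 0.01 stated in the methods. A second fit took the brightest tested probe of each of 8529 genes. Adjusted p-values are over genes for those probes and over 14604 probes otherwise. Scripts were tested on simulated data. Python 3.11.15 with SciPy 1.17.1 gave the exact permutation test. Of the 15944 listed probes 13778 had 1 symbol and 6 had several, and 13765 were updated through RefSeq gene identifiers.

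Replicate numbers come from the labels. Same-numbered arrays of the groups deviated together (r = 0.121, 0.390 and 0.324 over the tested probes), and the numbers stand for passages. The main fit and the permutation test nevertheless took the arrays as unpaired, so their errors and p-values leave this pairing out. The replicate number was used as a block only in an alternative. Genes named are every probe of the 9 genes, pathway genes past the threshold, RAS pathway genes fixed by name, and the 3 genes most correlated with each called gene. The genes and lists were chosen with earlier results of these data known. Bead numbers were not used, and 3 arrays per group limit the precision. Alternatives were an offset of 50, uncorrected background, median scaling, cyclic loess, no filter, detection on all 6 arrays, trended robust variances, averaged probes, the block, the normalized table and leaving out each array. With no filter the gene fit held 9166 genes, all named from probes above background on at least 1 array.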

Additional observations from a re-analysis of the deposited data

How the results depend on the processing

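The number of the 6 genes past the threshold was 2. It was 1 with median scaling (which moved the median of all genes from -0.0016 to 0.11 on the log2 scale), 0 to 1 with 1 array left out and 0 in the normalized table under its deposited names (called the unmatched table here), where 0 of all genes passed with limma and 202 had an unadjusted p under 0.05 (none of the 6). The called genes turned with median scaling from 149 higher and 247 lower to 239 higher and 163 lower. The number of pathway genes past the threshold was 6, with 3 to 4 when 1 array was left out, 0 in the unmatched table (2 with an unadjusted p under 0.05) and 5 to 7 otherwise. The number of all genes was 396, with 155 to 269 when 1 array was left out, 619 with trended robust variances and 556 with the replicate block. Apart from that of the Braf probe (adjusted p = 0.0113), the block changed no call among the probes of the 9 genes and the 6 called pathway genes, for which it was run, and the 2 and 6 genes called stayed 2 and 6 in number.

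Signs turned only for values within 2 SE of 0. Fgf4 was 0.089 with median scaling, 0.045 in the unmatched table and -0.089 to 0.051 with 1 array left out. Grb2 was -0.084 in the unmatched table and -0.091 to 0.14 with 1 array left out, and Araf was -0.042 in the unmatched table. The Araf probe ILMN_1237241 was 0.099 with median scaling, 0.034 in the unmatched table and -0.11 to 0.032 with 1 array left out. The Araf probe ILMN_1216083 was -0.034 in the unmatched table, and the Ptpn11 probe ILMN_2743723 was 0.11 with median scaling and 0.015 in the unmatched table. Braf against Araf kept its direction under its 11 alternatives other than the unmatched table (-0.86 to -0.40, exact permutation p 0.1 to 0.2). The choice of the Braf probe on these same arrays favoured that direction. Fgfr2 against Fgfr1 or Fgfr3 was not run, as neither had a tested probe. Probes near background, such as those of Grb2, Braf and Ddr2, have the least certain sizes.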
